A study of Mus musculus with 24 samples.

Results

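The 3 BALB/cJ mice that carried an inducible transgene for TGF-β1 (TG, strain label BC) were compared with the 14 TG mice of the other 5 strains, out of 24 mice in all. The members were the 3 arrays whose titles name both the transgene and that strain. The single wild-type (WT) BALB/cJ mouse was read against the 6 WT mice of the same 5 other strains, so that a strain difference already present without the transgene could be seen beside the one in TG mice. Each array held the RNA of 1 mouse, taken from a lobe of the right lung. All 24 mice, WT included, had received doxycycline in the drinking water for 2 weeks, the drug that switches the transgene on. The other TG groups were 129 (labelled S129, 3 mice), A/J (3), AKR/J (3), C3H (3) and C57BL/6J (2), and the other WT groups held 1 mouse each and 2 in C57BL/6J. The sources used here give no ages, no sexes and no promoter for the transgene. The series design places BALB/cJ among the fibrosis-resistant strains, a fibrosis code on the samples, decoded with its key, places it among the prone ones, and the labels also mark BALB/cJ and AKR/J as emphysematous. Neither label entered a comparison here.

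TGF-β is a secreted cytokine that signals through a pair of receptor kinases and SMAD transcription factors, and in the lung it drives fibroblasts to lay down collagen and other matrix. Inbred strains differ in how much their lungs scar or lose alveolar walls under the same TGF-β1 signal. BALB/cJ carries several known germline differences that can be read in RNA, among them an MHC haplotype with a working H2-Ea gene and a retroviral element in the first intron of Zhx2, a transcriptional repressor best known from liver, which lowers its mRNA. Other BALB/c substrains lack that element.

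Values were log2 intensities, and 13499 genes were read. The 3 TG BALB/cJ arrays correlated at 0.9951 to 0.9967 with each other across genes, against 0.9875 to 0.995 with the other TG arrays. The lung markers Sftpc, the surfactant protein of alveolar type 2 cells, and Ager, a type 1 cell receptor, averaged 14.39 ± 0.04 and 13.15 ± 0.05 in TG BALB/cJ mice (SD, n = 3), against strain means of 14.37 and 13.19 in other TG mice. TG differences are given as the mean of the 3 TG BALB/cJ mice minus the mean of the 5 other strains' TG means, with the SE and the adjusted p of the fit over all genes, and a gene is called where that p is below 0.05. In whole tissue, fewer cells of a type and less RNA per cell cannot be told apart.

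The strain labels were read first on 3 genes with known germline variants, out of 13 measured strain check genes. H2-Ea, an MHC class II chain that is deleted in the b haplotype of 129 and C57BL/6J, stood at 13.55, 13.46 and 13.10 in the TG BALB/cJ mice, and at 6.27 (lowest), 13.22 (median) and 13.48 (highest) in the other TG mice. The groups overlap, A/J, AKR/J and C3H having the gene at a like level, and the difference of 2.73 ± 0.09 (adjusted p = 1.3e-11) comes from the 129 and C57BL/6J mice. Nnt, a mitochondrial transhydrogenase disrupted in C57BL/6J, was at 10.45, 10.26 and 10.48 in TG BALB/cJ mice and between 9.58 and 10.52 in other TG mice, with C57BL/6J at the bottom (difference 0.31 ± 0.06, adjusted p = 0.0081). Zhx2 was at 8.01, 7.96 and 9.30 in TG BALB/cJ mice, and at 9.30, 9.88 and 10.06 (lowest, median, highest) in other TG mice. It was 2.64-fold lower (difference -1.40 ± 0.19, adjusted p = 0.0014), but the mice of the strain did not stand together. TG mice 1 and 2 lay below every other mouse of the series, while TG mouse 3 lay at the lowest of the other TG mice and the WT BALB/cJ mouse, at 9.37, close to it and below the 9.67 to 9.99 of the other WT mice. Without TG mouse 3 the Zhx2 difference was -1.84 (adjusted p = 2.5e-08), and without TG mouse 1 it was -1.19 (adjusted p = 0.024). In WT mice the difference was -0.50 ± 0.32 (adjusted p = 0.66). Whether TG mouse 3 and the WT mouse share the genotype of TG mice 1 and 2 was not tested, so a mean over the 3 TG BALB/cJ mice may not describe 1 uniform strain.

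**Figure D1:**
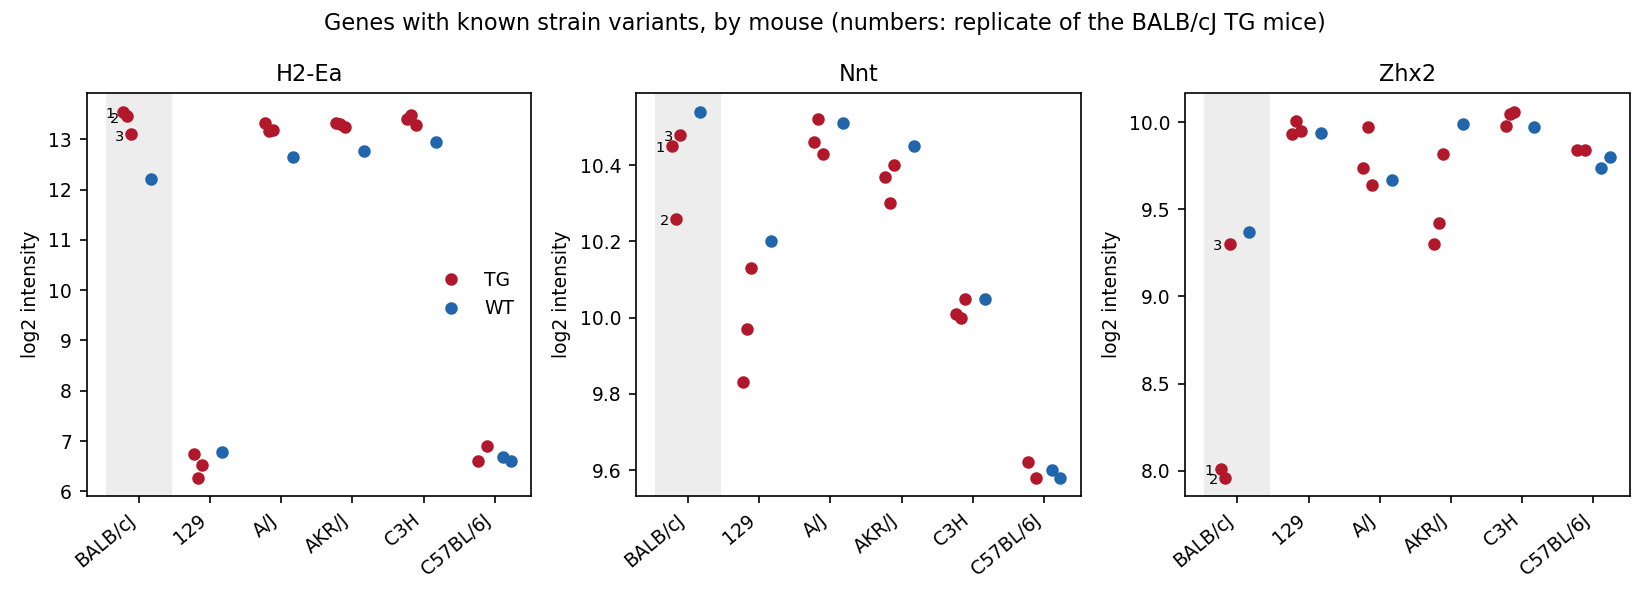
Log2 intensity of H2-Ea, Nnt and Zhx2 (vertical axes) in each mouse, by strain, with TG mice in red left of WT mice in blue; each point is 1 mouse and the small numbers name the TG BALB/cJ replicates. H2-Ea separates 129 and C57BL/6J from the 4 other strains, and Zhx2 is at 8.01 and 7.96 in TG BALB/cJ mice 1 and 2 while mouse 3 and the WT mouse are at 9.30 and 9.37.

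Single BALB/cJ mice stood apart in other genes as well, chosen after their values were seen. TG mouse 1 held liver transcripts. Alb, the serum albumin gene, was at 12.41, 7.14 and 8.37 in TG mice 1, 2 and 3 and at 6.59 in the WT mouse, against 6.30 to 7.21 in other TG mice. Of 34 measured liver genes, 15 lay at least 0.6 above the mean of the 2 other TG mice of the strain, with those 2 within 0.25 of each other, and the mean level of all 34 was 7.21 in that mouse and 6.33 to 6.50 in the 23 others. TG mouse 3 was apart from the other TG BALB/cJ mice in 81 genes by the same criterion, against 34 genes for mouse 1 and 11 for mouse 2, and in 58 of the 81 the WT BALB/cJ mouse lay nearer to mouse 3 than to mice 1 and 2. Npl, an enzyme of sialic acid breakdown, was at 7.55, 7.5 and 9.17 in TG mice 1, 2 and 3 and at 9.15 in the WT mouse, against 7.43 to 8.17 in other TG mice and 7.44 to 7.79 in other WT mice. The circadian output gene Hlf was at 8.15, 8.38 and 9.38 in TG mice and 9.76 in the WT mouse of the strain. That level in TG mouse 3 is shared with the AKR/J TG mice, at 9.22 to 9.36. Of 11 measured clock genes, 5 set TG mouse 3 apart. In TG mouse 2, Glycam1, a mucin of lymph node vessels and mammary gland, was at 7.92, against 5.96 and 5.72 in TG mice 1 and 3. The WT BALB/cJ mouse held platelet transcripts: Ppbp, a platelet chemokine gene, was at 12.58 there, against 7.39, 8.55 and 8.49 in TG mice of the strain and 7.87 to 10.33 in other WT mice. The gene list counts below are therefore followed by their values without single TG BALB/cJ mice for the lists described at length, and the part of these transcripts in other results was not tested.

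**Figure D2:**
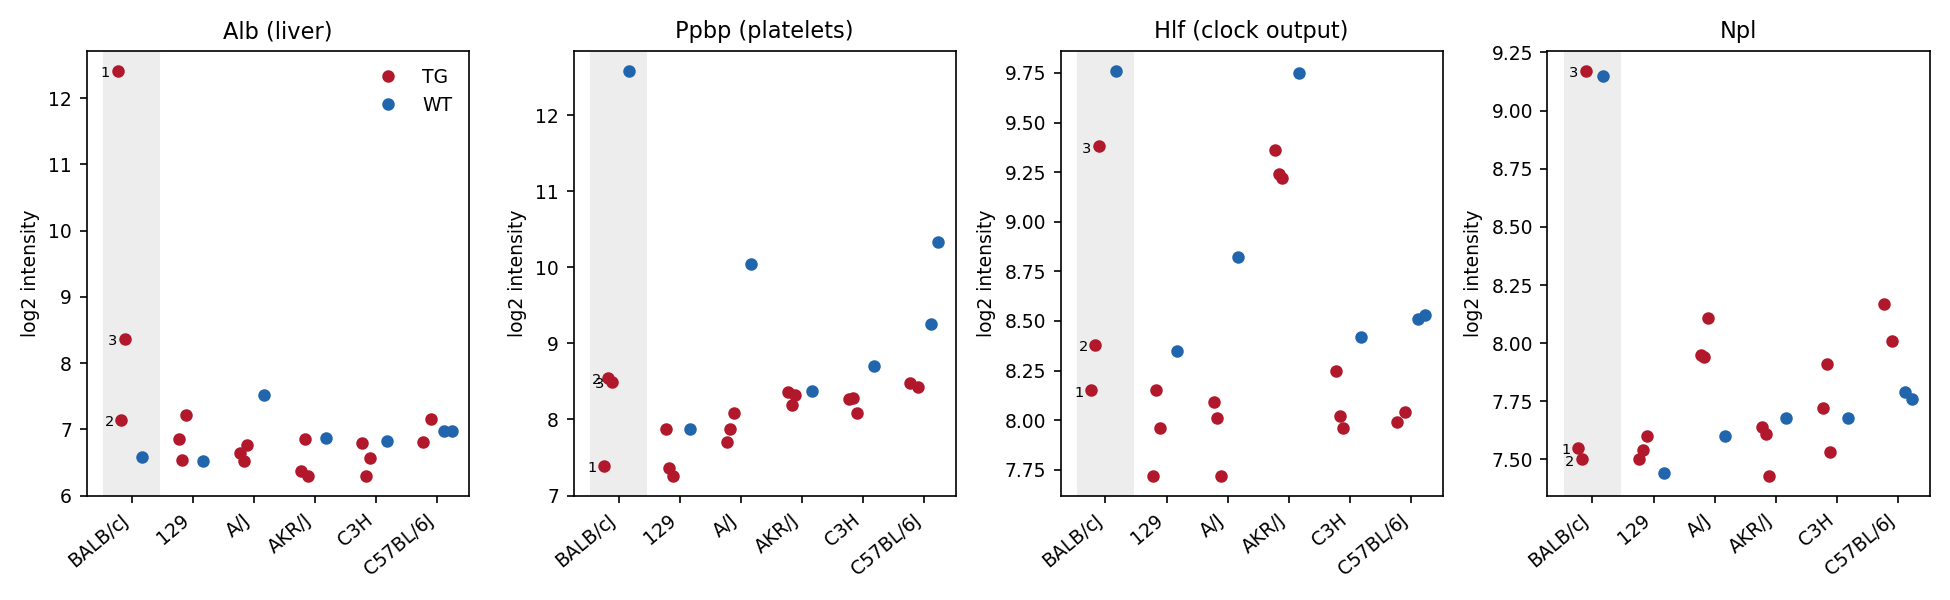
Log2 intensity (vertical axes) of Alb, Ppbp, Hlf and Npl in each mouse, by strain, with TG in red left of WT in blue; each point is 1 mouse and the small numbers name the TG BALB/cJ replicates. Alb is high in TG mouse 1 (12.41), Ppbp in the WT BALB/cJ mouse (12.58), and Hlf and Npl are high in TG mouse 3 and the WT BALB/cJ mouse together.

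Of the 13499 genes, 349 were called between TG BALB/cJ and other TG mice (2.59%), 121 higher (0.896%) and 228 lower (1.69%), and 15 of them differed at least 2-fold. BALB/cJ TG lungs were the least separate of the 6 strains by this count. The same comparison made for each other strain called 814 genes in C3H, 1158 in 129, 1854 in A/J, 1964 in AKR/J and 2186 in C57BL/6J, and these counts were not tested against each other. BALB/cJ TG means lay nearest those of C3H, with a median absolute difference of 0.074 per gene, and farthest from C57BL/6J, at 0.104. By the number of genes at least 2-fold apart they lay nearest AKR/J (20 genes, against 46 for C3H) and again farthest from C57BL/6J (129). The BALB/cJ count rests on single mice. It was 28 without TG mouse 1, 95 without TG mouse 2 and 288 without TG mouse 3, and 21 genes were called in every refit that left out 1 mouse. In the other strains with 3 TG mice, leaving out an own TG mouse left 221 genes or more. With strain means as the unit, which takes the spread between strains into the error, 1 gene was called, and that gene was Alb (2.59, adjusted p = 0.047), the liver transcript of TG mouse 1.

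**Figure D3:**
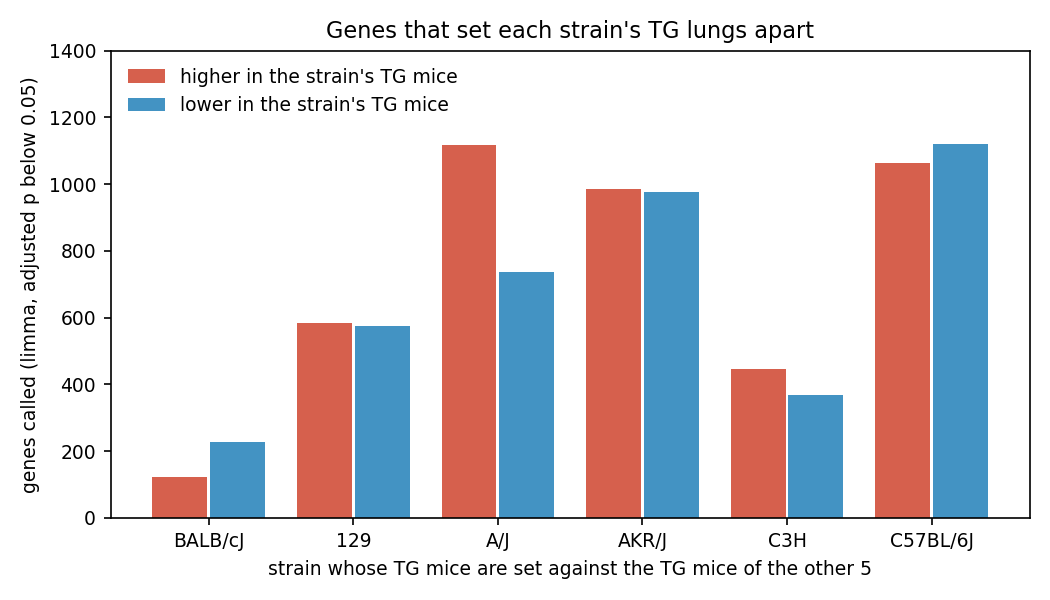
Number of genes called by limma (vertical axis, adjusted p below 0.05) when each strain's TG mice (horizontal axis) are set against the TG mice of the other 5 strains, with genes higher in that strain in red and lower ones in blue. BALB/cJ has 121 and 228, the fewest of the 6 strains.

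In 84 genes (0.622% of 13499) all 3 TG BALB/cJ mice lay outside the range of the 14 other TG mice, 30 above it (0.222%) and 54 below it (0.4%), and 19 and 30 of these were also called. Among the called genes above the range, Lyz1, a lysozyme gene of Paneth cells that alveolar type 2 cells also express, differed most. Lyz1 was at 14.01, 14.17 and 14.02 in TG BALB/cJ mice, against 12.03, 13.21 and 13.85 (lowest, median, highest) in other TG mice. The difference of 1.01 ± 0.17 (adjusted p = 0.0073) is 2.01-fold. Without TG mouse 1 the Lyz1 difference just missed the threshold (1.04, adjusted p = 0.052). The WT mice gave the same order, 14.30 in BALB/cJ against 13.29 to 13.96, with a difference of 0.71 ± 0.29 that was not called (adjusted p = 0.44). Its paralog Lyz2, with which its probes may share sequence, differed by 0.04 ± 0.07 in TG mice.

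Adhfe1, a mitochondrial hydroxyacid dehydrogenase, was at 8.40, 8.66 and 8.57 in TG BALB/cJ mice, against 7.71 to 8.29 in other TG mice (0.51 ± 0.09, adjusted p = 0.0081). The TG minus WT difference of Adhfe1 was -0.67 in BALB/cJ and -0.85 over the other strains. Acot2, a mitochondrial acyl-CoA thioesterase, differed by 0.39 ± 0.08 and Acadl, the long-chain acyl-CoA dehydrogenase of fatty acid oxidation, by 0.31 ± 0.07. Txnip, a glucose-responsive inhibitor of thioredoxin, was at 13.18, 13.10 and 13.08 in TG BALB/cJ mice, against 12.28, 12.77 and 13.02 in other TG mice (0.45 ± 0.07, adjusted p = 0.0057). The WT BALB/cJ mouse, at 13.15, lay among the other WT mice (12.81 to 13.20). For Txnip, Acot2, Stard3nl, Traf1 and Malat1 the WT difference was under 0.10 or negative, whereas for Slit2, a secreted guidance ligand of Robo receptors, Ppih, a spliceosomal cyclophilin, Btbd3, Acadl and Rhob, a small GTPase, it was within 0.05 of the TG difference. Slit2 differed by 0.37 ± 0.08 in TG and by 0.33 ± 0.14 in WT mice. Dpp4, a cell surface peptidase, and Sesn1, a stress-induced p53 target, differed by 0.35 ± 0.07 and 0.37 ± 0.08 in TG mice. Traf1, an adaptor of TNF receptors, was 0.34 ± 0.08 higher in TG and had a WT difference of -0.43 ± 0.14 (adjusted p = 0.30), and the difference between these was 0.77 ± 0.17 (adjusted p = 0.14).

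Below the range of other TG mice, the orphan nuclear receptor genes Nr4a3 and Nr4a1 differed most, and they are described with the immediate early genes. Cda, the cytidine deaminase gene, was at 7.72, 7.67 and 7.64 in TG BALB/cJ mice, against 7.74, 8.58 and 9.10 (lowest, median, highest) in other TG mice. The Cda difference of -0.88 ± 0.14 (adjusted p = 0.0055) stood beside -0.76 ± 0.23 in WT mice (adjusted p = 0.26), where BALB/cJ at 7.44 also lay below the other 6 mice (7.80 to 8.63). Slc39a4, a zinc importer, was at 9.90, 9.86 and 9.74, against 10.07 to 10.69 in other TG mice, a difference of -0.56 ± 0.07 (adjusted p = 0.0014). It was called in WT mice too (-0.68 ± 0.13, adjusted p = 0.031), and the WT BALB/cJ mouse at 9.80 lay below the 10.37 to 10.68 of the others. Both Slc39a4 and Cda were called in every refit that left out 1 mouse. Slc2a1, the glucose transporter GLUT1, was at 9.73, 9.72 and 9.76 in TG BALB/cJ mice, against 9.85 to 10.53 (-0.43 ± 0.08, adjusted p = 0.010), and at 10.05 in the WT mouse, against 10.22 to 10.39. Depdc1a, a mitotic gene near the bottom of the array's range, was at 4.12, 3.95 and 4.01 in TG BALB/cJ mice and between 4.14 and 6.13 in other TG mice (-0.90 ± 0.20).

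Fgr, a Src-family kinase of myeloid cells, was at 8.45, 8.45 and 8.43 in TG BALB/cJ mice, against 8.52 to 9.89 (-0.55 ± 0.13, adjusted p = 0.034). Lacc1, an enzyme of macrophage metabolism, differed by -0.49 ± 0.12, and Ccl8, a chemokine gene, by -0.42 ± 0.09. Bdkrb1, the inducible bradykinin receptor, differed by -0.52 ± 0.12, Hdac9, a histone deacetylase, by -0.40 ± 0.07, and Grrp1 by -0.37 ± 0.06. Bdkrb1, Hdac9 and Grrp1 had WT differences between -0.09 and 0.03. Of the 28 genes described as outside the range, 4 were still called without TG mouse 1, 7 without TG mouse 2 and 17 without TG mouse 3, with the direction kept in each.

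**Figure D4:**
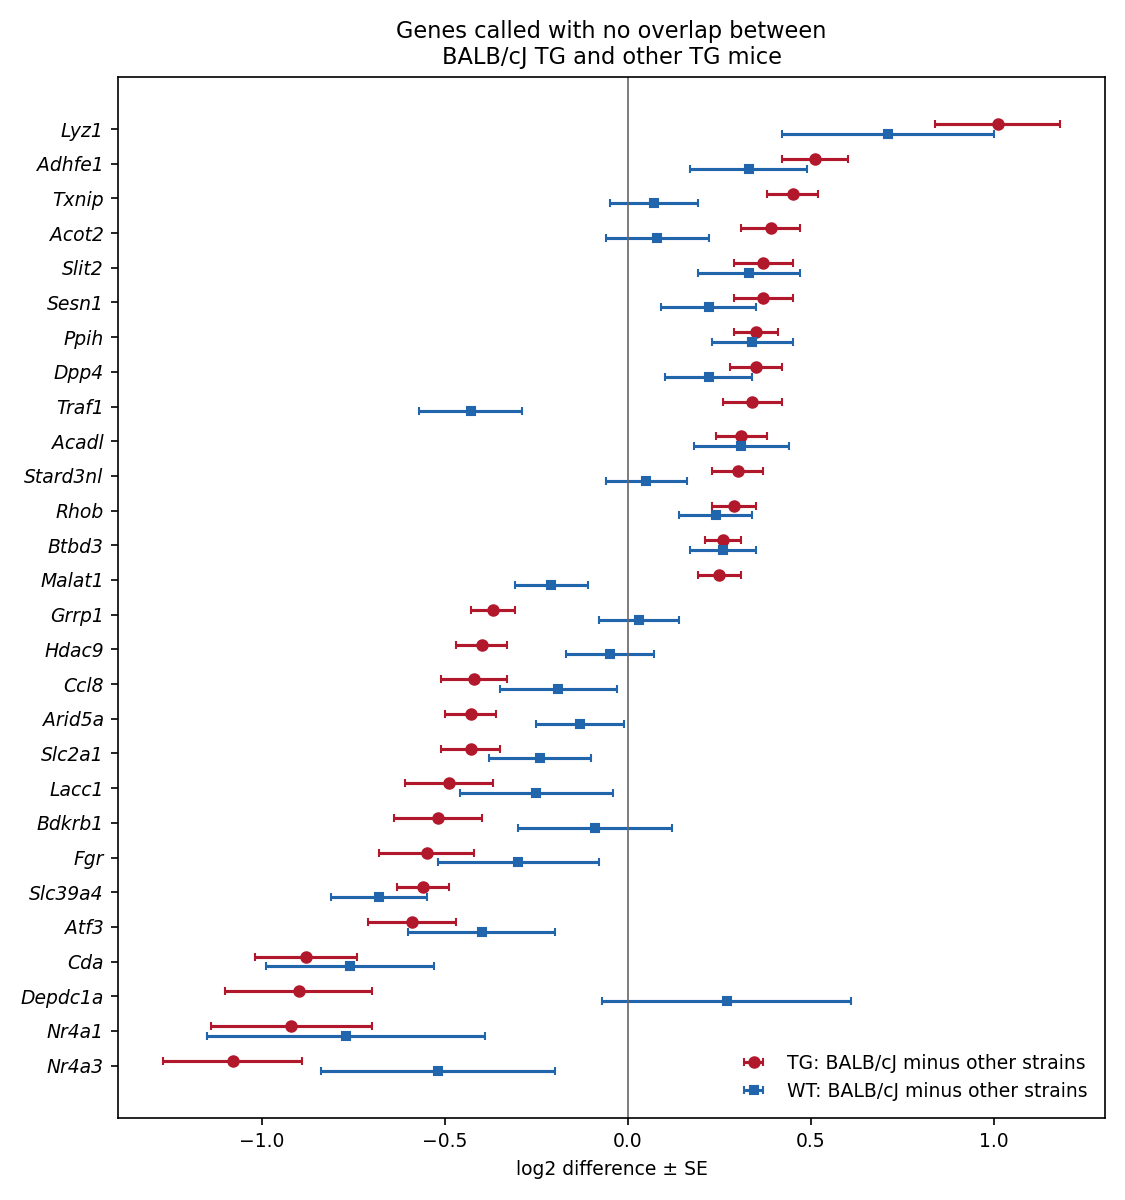
Log2 difference of BALB/cJ from the other strains (horizontal axis, bars are the SE of the fit) in TG mice (red circles, upper point) and in WT mice (blue squares, lower point) for the 28 described genes whose TG BALB/cJ values do not overlap other TG mice. Traf1, Malat1, Depdc1a and Grrp1 lie on opposite sides of 0 in TG and WT mice, and Slc39a4, Cda, Slit2 and Acadl lie close together.

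Immediate early genes encode transcription factors and feedback inhibitors that cells switch on within minutes of a stimulus, without new protein synthesis. Their list was drawn up after Nr4a3, Nr4a1, Atf3 and Arid5a had been seen. Its count, median and mean levels are therefore descriptions to which these genes contribute. Whether the list stands apart without them was not tested. Of 21 measured members, 7 were lower in TG BALB/cJ mice and 0 higher, 18 of the 21 differences were negative, and the median was -0.26, against -0.02 over all genes, 1.69% of which were called lower. The mean level of the 21 genes was 9.40, 9.29 and 9.32 in TG BALB/cJ mice, below each of the other TG mice (9.44, 9.62 and 9.78, lowest, median, highest). In WT mice BALB/cJ was lowest as well, at 9.25, against 9.27 to 9.77. The same median in the other strains' TG mice, each against the rest, lay between -0.03 and 0.06. Egr1, Fos, Jun and Dusp1, further members chosen as textbook members after their values were seen, were not called, and differed in TG mice by -0.32 ± 0.20, -0.26 ± 0.18, 0.08 ± 0.06 and -0.01 ± 0.09. The count was 1 without TG mouse 1, 2 without TG mouse 2 and 4 without TG mouse 3, and the median stayed between -0.32 and -0.16.

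Nr4a3 was at 7.78, 7.92 and 8.0 in TG BALB/cJ mice, against 8.23, 8.93 and 9.79 (lowest, median, highest) in other TG mice. All 3 lay below the 14, by 0.23 at the nearest, and the difference of -1.08 ± 0.19 (adjusted p = 0.0073) is 2.11-fold. Nr4a1 was at 10.14, 9.78 and 9.82, against 10.17 to 11.59 (-0.92 ± 0.22, adjusted p = 0.035), with 0.02 between the groups. In WT mice the BALB/cJ values of 8.12 for Nr4a3 and 10.11 for Nr4a1 lay inside the ranges of the others, 8.05 to 9.30 and 9.94 to 11.69. Socs3, a feedback inhibitor of cytokine receptors, was at 9.16, 9.11 and 9.36 in TG BALB/cJ mice, against 9.20 to 10.61 (-0.72 ± 0.12, adjusted p = 0.0073), with AKR/J overlapping, and its other probe set differed by -0.21 and was not called. Atf3, a stress-induced repressor, was at 8.80, 8.72 and 8.89 in TG BALB/cJ mice, against 8.97 to 9.96 (-0.59 ± 0.12, adjusted p = 0.015). Arid5a, which stabilises Il6 mRNA, was at 8.66, 8.63 and 8.51, against 8.85 to 9.24 (-0.43 ± 0.07, adjusted p = 0.0073). It stayed called in every refit that left out 1 mouse. Nr4a1 missed the threshold without any 1 of the 3 TG BALB/cJ mice (adjusted p 0.098, 0.21 and 0.12), and Nr4a3 without TG mouse 1 (adjusted p = 0.06). Atf3 missed it without TG mouse 1 (adjusted p = 0.089) and without TG mouse 2 (adjusted p = 0.12).

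The promoter windows of Nr4a3, Nr4a1, Atf3 and Arid5a, the 4 list members called lower whose groups do not overlap, are shown because immediate early promoters are known to hold binding sites for CREB-type factors. The windows run from 250 bases before to 50 after the RefSeq start (GRCm38.p6), 5′ to 3′ on the gene's strand, and capitals mark the core of the cyclic AMP response element, TGACG or its reverse complement CGTCA.
Nr4a3 (chr4:48045055-48045354, plus strand): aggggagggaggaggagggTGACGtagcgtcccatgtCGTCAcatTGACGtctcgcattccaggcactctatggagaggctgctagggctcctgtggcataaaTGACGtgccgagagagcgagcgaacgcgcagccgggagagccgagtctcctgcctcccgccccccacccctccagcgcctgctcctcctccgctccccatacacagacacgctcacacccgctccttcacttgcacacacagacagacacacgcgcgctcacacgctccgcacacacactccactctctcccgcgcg
Nr4a1 (chr15:101266596-101266895, plus strand): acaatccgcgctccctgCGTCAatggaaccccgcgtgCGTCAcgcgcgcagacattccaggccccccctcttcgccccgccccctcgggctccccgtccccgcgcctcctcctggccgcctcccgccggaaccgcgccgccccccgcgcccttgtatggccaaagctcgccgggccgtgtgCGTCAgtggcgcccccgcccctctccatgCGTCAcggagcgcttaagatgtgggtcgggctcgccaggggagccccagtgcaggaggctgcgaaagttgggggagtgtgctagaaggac
Atf3 (chr1:191183284-191183583, minus strand): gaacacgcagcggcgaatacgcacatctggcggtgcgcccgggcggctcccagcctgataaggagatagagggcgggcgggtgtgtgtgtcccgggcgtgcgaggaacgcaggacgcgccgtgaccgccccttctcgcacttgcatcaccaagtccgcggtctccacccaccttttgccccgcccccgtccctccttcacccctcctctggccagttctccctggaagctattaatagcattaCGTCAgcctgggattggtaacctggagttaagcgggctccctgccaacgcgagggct
Arid5a (chr1:36307483-36307782, plus strand): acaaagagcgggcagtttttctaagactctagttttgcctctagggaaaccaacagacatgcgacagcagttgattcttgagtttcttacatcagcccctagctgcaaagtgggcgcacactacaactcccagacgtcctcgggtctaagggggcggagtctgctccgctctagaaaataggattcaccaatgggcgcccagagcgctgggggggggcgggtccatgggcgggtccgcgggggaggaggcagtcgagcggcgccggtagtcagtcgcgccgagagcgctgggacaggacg
These letters occur 4 times in the Nr4a3 window, 4 times in that of Nr4a1 1 time in that of Atf3 and 0 times in that of Arid5a. Of the 17 list members with a window, 10 hold them (58.8%), against 20.8% of all 32851 windows. A member was counted if any of its windows held them, whereas the share of all is of single windows, so the units differ. Among the 7 called members 3 hold them, namely Nr4a3, Nr4a1 and Atf3. The full element TGACGTCA, which contains the core on both strands, is in a window of 2 of the 17 members and in 1.8% of all windows. A match of letters is a description of the window and says nothing of which factor was bound.

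Cell cycle genes were lower in TG BALB/cJ mice than in the other TG mice as a whole. Of 34 measured genes of replication and mitosis, 17 were lower and 0 higher, 33 differences were negative, and the median was -0.45, against 1.69% of all genes called lower and a median of -0.02. Their mean level was 7.36, 7.57 and 7.28 in TG BALB/cJ mice, against 7.37, 7.62 and 8.79 (lowest, median, highest) in other TG mice, so the groups overlap. The median TG difference of each strain from the rest was also negative in 129 (-0.39), AKR/J (-0.36) and C3H (-0.15), and positive in A/J (0.91) and C57BL/6J (0.34). Without A/J the BALB/cJ count was 4. In BALB/cJ the list had a median TG minus WT difference of -0.01, against 0.47 over the other strains, and 28 of the 34 genes were called higher in TG than in WT mice over those strains, where 13.1% of all genes were. The test of the difference of TG effects called 0 of the 34. The count of 17 was 1 without TG mouse 1, 14 without TG mouse 2 and 6 without TG mouse 3, with medians of -0.42, -0.54 and -0.35.

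Ccna2, the cyclin of S phase and mitotic entry, was at 7.81, 8.31 and 7.81 in TG BALB/cJ mice, against 7.97, 8.65 and 10.52 (lowest, median, highest) in other TG mice (-0.98 ± 0.16, adjusted p = 0.0068). It was 8.09 in the WT BALB/cJ mouse and 7.08 to 8.48 in other WT mice. Bub1, a kinase of the spindle checkpoint, was at 6.28, 7.25 and 6.49, against 6.48 to 8.96 (-0.77 ± 0.17, adjusted p = 0.024). TG mouse 2 was the high one in both genes. Kif11, a spindle motor, differed by -0.75 ± 0.14 and Cdk1, the kinase of mitosis, by -0.68 ± 0.13, and for both the highest TG mice were those of A/J, up to 9.65 and 9.84.

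Late cell cycle promoters are known for CCAAT boxes, bound by NF-Y, and for the cell cycle genes homology region (CHR), bound by the DREAM and MuvB complexes. The windows of Bub1, Kif11 and Cdk1 are shown with CCAAT (reverse ATTGG) and the CHR letters TTTGAA (reverse TTCAAA) or TTCGAA in capitals. The motif words do not overlap each other in these windows, and no window of Ccna2 was matched by symbol.
Bub1 (chr2:127831810-127832109, minus strand): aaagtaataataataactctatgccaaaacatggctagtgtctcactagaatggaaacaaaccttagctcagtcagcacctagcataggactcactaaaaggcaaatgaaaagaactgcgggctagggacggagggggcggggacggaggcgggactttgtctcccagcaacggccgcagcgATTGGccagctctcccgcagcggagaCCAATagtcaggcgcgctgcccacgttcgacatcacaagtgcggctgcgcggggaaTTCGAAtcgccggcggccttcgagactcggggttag
Kif11 (chr19:37376132-37376431, plus strand): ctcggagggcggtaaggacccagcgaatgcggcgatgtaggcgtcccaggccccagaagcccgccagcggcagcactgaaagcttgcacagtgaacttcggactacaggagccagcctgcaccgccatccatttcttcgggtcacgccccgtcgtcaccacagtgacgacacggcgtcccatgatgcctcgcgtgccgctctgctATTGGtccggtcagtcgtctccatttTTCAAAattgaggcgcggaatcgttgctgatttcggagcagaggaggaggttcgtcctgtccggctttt
Cdk1 (chr10:69352863-69353162, minus strand): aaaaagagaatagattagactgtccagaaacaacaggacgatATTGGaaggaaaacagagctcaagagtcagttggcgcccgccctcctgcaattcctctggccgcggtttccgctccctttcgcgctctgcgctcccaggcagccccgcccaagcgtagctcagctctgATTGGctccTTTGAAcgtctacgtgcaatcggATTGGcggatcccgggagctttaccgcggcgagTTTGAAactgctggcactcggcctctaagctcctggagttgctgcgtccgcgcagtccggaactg
CCAAT letters occur 2, 1 and 3 times in the windows of Bub1, Kif11 and Cdk1, and CHR letters 1, 1 and 2 times. Of the 27 list members with a window, 20 hold CCAAT (74.1%) and 15 a CHR (55.6%), against 37.4% and 19.2% of all windows. Members were again counted by any of their windows and the share of all by single windows, so the units differ. Among the 14 called members with a window, 12 hold CCAAT and 10 a CHR.

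TGF-β target genes had a small median difference. Of 27 measured targets 5 were lower in TG BALB/cJ mice and 0 higher, with a median of -0.07. Over all genes, 1.69% were called lower and 0.896% higher, with a median of -0.02. Their mean level was 10.88, 10.82 and 10.90 in TG BALB/cJ mice and 10.49 in the WT BALB/cJ mouse, and the other TG mice ranged from 10.78 to 11.33. The median TG minus WT difference was 0.35 in BALB/cJ, between those of AKR/J (0.21), C3H (0.29) and 129 (0.33) and those of A/J (0.61) and C57BL/6J (0.73). Thbs1, thrombospondin 1, an activator of latent TGF-β, was at 11.87, 11.41 and 11.59 in TG BALB/cJ mice, against 11.60, 12.59 and 12.99 (lowest, median, highest) in other TG mice (-0.86 ± 0.15, adjusted p = 0.0077). Tnc, the matrix glycoprotein tenascin C, was at 9.82, 9.66 and 10.27, against 10.11 to 11.53 (-0.75 ± 0.16, adjusted p = 0.022). Tgfbi, a secreted matrix protein, differed by -0.56 ± 0.11 and Itgb6, the β chain of an integrin that activates TGF-β, by -0.35 ± 0.09. Itgb6 was nevertheless 1.13 higher in TG than in WT BALB/cJ mice, against 1.54 in the other strains. The count of 5 was 2 without TG mouse 1 and 1 without TG mouse 2, and without C57BL/6J it was 3 with a median of 0.01.

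**Figure D5:**
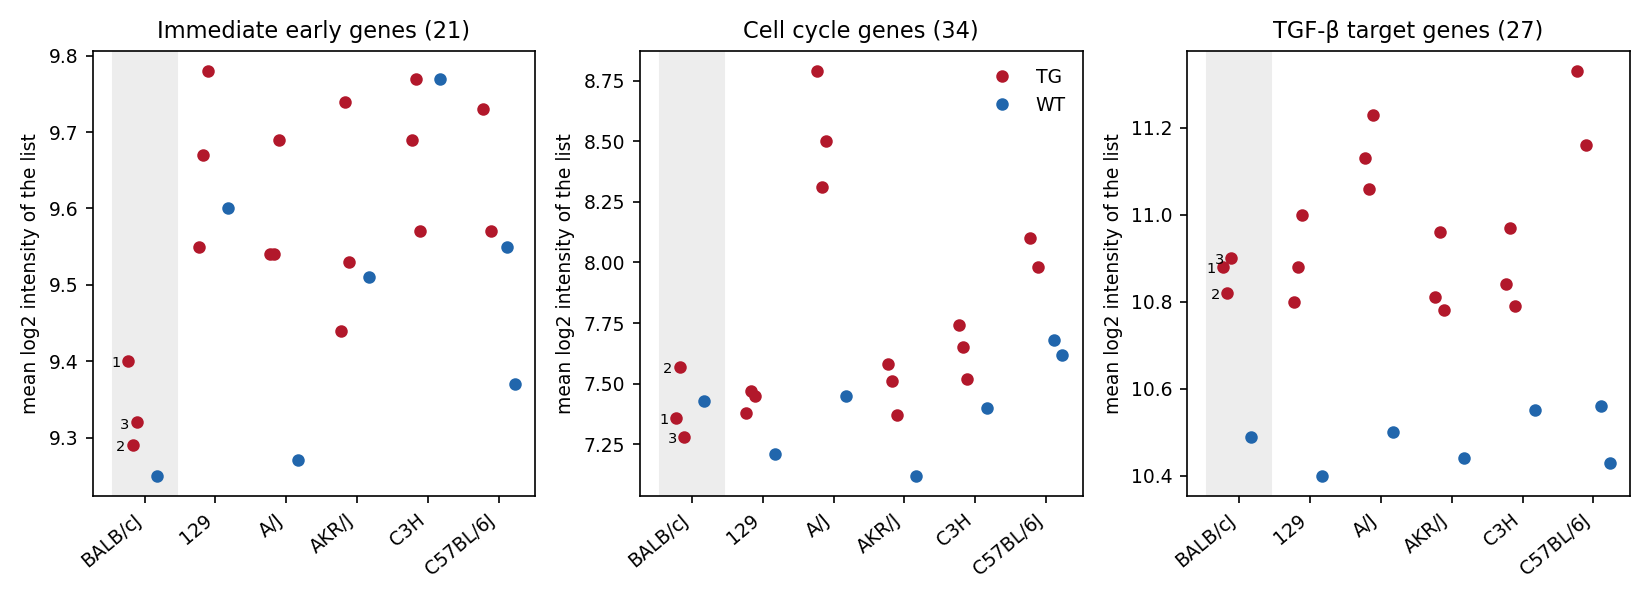
Mean log2 intensity of 3 gene lists (vertical axes; number of genes in the titles) in each mouse, by strain, with TG in red left of WT in blue; each point is 1 mouse and the small numbers name the TG BALB/cJ replicates. The immediate early genes are at 9.29 to 9.40 in TG BALB/cJ mice, below every other TG mouse. Their list was drawn up after low members had been seen. The cell cycle and TGF-β target genes of these mice overlap those of other TG mice.

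Matrix genes gave 0 called of 24 collagen genes, 20 of them with negative differences and a median of -0.15, and 1 of 11 elastic fibre genes, the fibrillin gene Fbn2 (-0.26 ± 0.06, adjusted p = 0.021), which missed the threshold without any 1 of the TG BALB/cJ mice. Over all genes, 2.59% were called either way. The collagen count was 7 lower with array weights, 7 without AKR/J, 4 without C3H and 4 without A/J TG mouse 2. Among 24 proteases and inhibitors, the aggrecan-cleaving Adamts4 (-0.53 ± 0.09) and Adamts1 (-0.42 ± 0.11) were lower, against 1.69% of all genes. Adamts4 was at 7.45, 7.33 and 7.21 in TG BALB/cJ mice, against 7.16, 7.60 and 9.26 in other TG mice. The transitional epithelial list, keratins and other genes of cells passing from alveolar type 2 to type 1, had 2 of 10 genes lower, Hbegf, a ligand of the EGF receptor (-0.45 ± 0.11), highest in C3H, and Itgb6, with all 10 differences negative and a median of -0.37. The share of all genes called lower was again 1.69%. The transitional list's median in WT mice was -0.21. Its counts were 0 without TG mouse 1 and 0 without TG mouse 3, but 8 with array weights and 8 without AKR/J.

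Alveolar type 1 genes gave 3 of 12 lower, where 1.69% of all genes were. Igfbp2, an IGF-binding protein of mature type 1 cells, was at 8.63, 8.87 and 9.07 in TG BALB/cJ mice, against 8.79, 10.15 and 11.18 (lowest, median, highest) in other TG mice (-1.08 ± 0.20, adjusted p = 0.01). A/J (8.79 to 9.84) and C57BL/6J (9.10 and 9.27) were close to BALB/cJ, and C3H (10.64 to 11.18) was farthest. Aqp5, a water channel, differed by -0.31 ± 0.08 and Spock2, a matrix proteoglycan, by -0.30 ± 0.05, while Ager did not pass the test (-0.04 ± 0.05). Aqp5 was at 11.11 to 11.32 in TG BALB/cJ mice and at 11.09 and 11.19 in C57BL/6J. It missed the threshold without any 1 of the TG BALB/cJ mice. Spock2 was at 11.16 to 11.23, with A/J overlapping (11.16 to 11.32) and C57BL/6J lower (11.03 and 11.07). AKR/J and C3H were the high strains for Spock2 (11.80 to 12.04). The median of the 12 was -0.02, and the count was 0 without TG mouse 1 or without C3H. The median was 0.04 without C3H and 0.06 without AKR/J.  Of 17 alveolar type 2 genes, Lyz1 was higher and Scd1, a fatty acid desaturase, lower (-0.27 ± 0.06). Among 16 club and goblet cell genes, Retnla, a secreted protein of type 2 inflammation, was lower, at 8.91, 8.47 and 8.04 in TG BALB/cJ mice, against 8.33, 10.32 and 11.41 in other TG mice (-1.61 ± 0.39, adjusted p = 0.038). The AKR/J TG mice, at 8.33 to 8.61, lay in the BALB/cJ range, and Retnla missed the threshold without any 1 of the TG BALB/cJ mice (adjusted p 0.099, 0.18 and 0.16).

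Fibroblast genes gave 4 of 25 higher and 0 lower, with a median of 0.05. Over all genes, 0.896% were called higher and 1.69% lower. The 4 were Igfbp6 (0.56 ± 0.13), the Wnt inhibitor Wif1 (0.44 ± 0.11), Igfbp5 (0.35 ± 0.09) and the proteoglycan gene Ogn (0.33 ± 0.08). Igfbp6 was at 9.99, 10.07 and 9.79 in TG BALB/cJ mice, against 8.58 to 10.13 in other TG mice, with A/J and C57BL/6J at the bottom. Ogn was at 12.14 to 12.21 in TG BALB/cJ mice, below 129 (12.23 to 12.46) and overlapped by C3H and AKR/J (12.01 to 12.31). A/J and C57BL/6J were again lowest for Ogn (11.01 to 11.52). Wif1 was at 7.94 to 8.54, with A/J (8.13 to 8.30) overlapping. Without TG mouse 1, without TG mouse 2 or without C57BL/6J the count was 0. Complement genes gave 3 of 20 higher and 1 lower, with a median of 0.04, against the same shares of all genes. C4b, complement component 4, was at 11.09, 10.91 and 10.93, against 8.96, 10.78 and 11.32 (0.68 ± 0.08, adjusted p = 0.001). C3H (8.96 to 9.18) and AKR/J (9.16 to 9.57) were low, and the other strains overlapped BALB/cJ. C7, of the terminal pathway, differed by 0.36 ± 0.08, Masp2, a lectin pathway protease, by 0.31 ± 0.07 and Masp1, another, by -0.50 ± 0.11. Without TG mouse 1, and likewise without TG mouse 2, the complement count was 1 higher and 0 lower, C4b being the one that stayed. Detoxification genes gave 1 of 33, the glutathione transferase gene Gsta3 (0.56 ± 0.14, adjusted p = 0.039), at 9.98, 10.17 and 10.17, against 8.37 to 10.58, again with A/J and C57BL/6J lowest, and it missed the threshold without any 1 of the TG BALB/cJ mice. Rarres1, a retinoid-induced gene, was at 7.39, 7.09 and 7.46, against 6.12, 6.39 and 7.34 (0.78 ± 0.14, adjusted p = 0.0079), with AKR/J (6.84 to 7.34) and 1 A/J mouse (7.15) nearest.

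Of the MHC class II and dendritic cell genes, H2-Ea was higher and H2-Ab1 (-0.47 ± 0.08) and H2-Eb2 (-0.65 ± 0.13) lower, of 14 measured. H2-Ab1 was at 12.19, 11.82 and 11.79 in TG BALB/cJ mice and at 12.88 to 13.02 in TG mice of 129 and C57BL/6J, with A/J, AKR/J and C3H (11.79 to 12.28) overlapping BALB/cJ. H2-Eb2 was at 7.73 to 8.02 in TG BALB/cJ mice, with A/J, AKR/J and C3H (7.69 to 8.36) overlapping. The TG mice of 129 and C57BL/6J were at 8.91 to 9.33. H2-Ab1 was called in WT mice as well (-0.87 ± 0.14, adjusted p = 0.011). Cd74, the invariant chain, differed by -0.01 ± 0.05. Of 18 MHC class I genes, H2-Q5 was higher (0.38 ± 0.10) and H2-M2 (-0.64 ± 0.13) and the peptide transporter gene Tap2 (-0.22 ± 0.05) lower. H2-M2 was at 7.14 to 7.32 in TG BALB/cJ mice and 7.07 to 7.26 in A/J. Tap2 was at 9.35 to 9.46, against 9.27 to 9.49 in A/J. For H2-Q5, C3H (10.48 to 10.95) overlapped BALB/cJ (10.58 to 11.01). The class I counts were 0 each way without TG mouse 1 and without TG mouse 2, and the lower class II count of 2 was 1, 0 and 1 without TG mice 1, 2 and 3. That class II count was also 0 without 129 and 0 without C57BL/6J. MHC genes are polymorphic between these strains, and sequence differences under their probes were not analysed here. Interferon genes gave 0 of 26, T and NK cell genes 0 of 20, B cell genes 0 of 19, neutrophil genes 0 of 18, ciliated cell genes 0 of 18 and smooth muscle genes 0 of 13. Monocyte and interstitial macrophage genes gave 1 of 20, Ccl8, and 0 without any 1 of the TG BALB/cJ mice. Over all genes 2.59% were called either way, so a count of 0 in a list this small is near the share of all genes.

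Without the transgene, 29 genes were called between the WT BALB/cJ mouse and the other WT mice (0.215%), 14 higher and 15 lower, on 1 BALB/cJ mouse whose spread was taken to be that of the other groups. The largest higher values were platelet genes, Ppbp (3.63 ± 0.36) and Rgs18, a G-protein regulator of platelets (2.24 ± 0.26), with H2-Ea (1.85 ± 0.16) and Wif1 (1.73 ± 0.19). Of 17 platelet genes 7 were higher, against 0.104% of all genes. The mean level of the 17 was 9.36 in that mouse, against 8.29 to 8.64 in other WT mice and 8.27 to 8.32 in TG BALB/cJ mice. The largest lower values were AI506816 (-3.09 ± 0.56), BC018473 (-2.17 ± 0.27), Nlrp1a, an inflammasome sensor gene with close paralogs (-1.21 ± 0.21), and Upk1b, a uroplakin of urothelium and mesothelium (-0.90 ± 0.17). AI506816 was at 6.87, 7.29 and 6.02 in TG BALB/cJ mice and 5.62 in the WT mouse. The 129 mice were lower still, at 4.59 to 5.51 in TG and 5.07 in WT, and all other mice lay between 8.82 and 11.18. BC018473 was at 5.95 in the WT BALB/cJ mouse and 6.14 to 6.60 in WT mice of AKR/J, C3H and C57BL/6J. Only the WT mice of 129 (10.61) and A/J (11.01) were high. Nlrp1a was at 4.92 in the WT BALB/cJ mouse and 5.16 to 5.66 in those of 129, C3H and C57BL/6J. The WT mice of A/J (7.47) and AKR/J (7.23) were the high ones. Upk1b was lower in TG mice as well (-0.78 ± 0.10, adjusted p = 0.0014). In WT mice Upk1b was at 8.88 in BALB/cJ, 8.85 in AKR/J, 9.17 in C3H and 9.45 in A/J. The WT mice of 129 and C57BL/6J were at 10.61 to 10.83. In TG mice, A/J and AKR/J (8.99 to 9.33) overlapped BALB/cJ (8.77 to 9.33).

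The strain difference in TG mice was set beside that in WT mice, which share no mouse. Of the 121 genes higher in TG BALB/cJ mice, 98 (81%) had a WT difference of the same sign, and of the 228 lower ones 155 (68%) did, against 57.9% of all 13499 genes. The median WT difference was 0.15 for the 121 and -0.09 for the 228, against TG medians of 0.33 and -0.42, and the TG medians follow from the choice of the genes. Of the 29 genes called in WT mice, 23 had the same sign in TG mice.

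Between TG and WT BALB/cJ mice 305 genes were called (2.26%), 134 higher (0.993%) and 171 lower (1.27%). The TGF-β targets gave 8 of 27 higher and the collagens 3 of 24, with 0 lower in both. Over the other strains, with 14 TG and 6 WT mice, 22 and 19 members were higher, against 13.1% of all genes, and the larger number of mice makes these counts unequal in precision. The difference of TG effects was called for 0 members of either list.

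The test of the difference itself, TG minus WT in BALB/cJ less the mean of the same over the other strains, called 13 genes (0.0963%), 3 higher and 10 lower, with 984 genes at an unadjusted p below 0.05. Among the 10 lower were 7 genes of the platelet list, led by Ppbp (-3.55 ± 0.42, adjusted p = 0.0006), Rgs18 (-2.30 ± 0.30), Tubb1, the platelet tubulin gene (-1.62 ± 0.20), P2ry12, the platelet ADP receptor gene (-1.61 ± 0.15), and Pf4 (-1.50 ± 0.16). F5, coagulation factor V, which platelets also carry, differed by -1.43 ± 0.14. In TG mice none of these 6 genes was called, with differences between -0.26 and 0.08, and the WT BALB/cJ mouse was the highest of all WT mice in each. Rgs18, for example, was at 8.12, 8.30 and 8.37 in TG BALB/cJ mice and 10.72 in the WT mouse, against 7.82 to 8.97 in other WT mice. Wif1 (-1.29 ± 0.22) was at 7.99, 7.94 and 8.54 in TG mice and 9.32 in the WT mouse. Without TG mouse 3 the count was 43, and without TG mouse 1 it was 6.

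The 21 genes called in every leave-one-out refit, 7 higher and 14 lower, were chosen after their values were seen. Beside H2-Ea, C4b, Zhx2, Slc39a4, Cda, Arid5a, Adamts4, Upk1b, AI506816 and BC018473, they held Abca17, a transporter gene, at 8.95, 9.59 and 8.96 in TG BALB/cJ mice, against 7.15, 8.34 and 8.98 (1.07 ± 0.14), and at 9.33 in the WT mouse, against 7.76 to 9.40. Lama1, the α1 chain of laminin in basement membranes, was at 7.34, 7.38 and 7.36 in TG BALB/cJ mice, against 7.37, 7.77 and 9.72 (-0.83 ± 0.11, adjusted p = 0.0014), so that the groups meet at the lower end. Spry4, a feedback inhibitor of receptor kinases, differed by -0.44 ± 0.08, Ntn1, netrin 1, by -0.35 ± 0.05, Itgav, the α chain of TGF-β-activating integrins, by -0.32 ± 0.05, and the mitotic genes Bub1b and Arhgap11a by -0.50 ± 0.06 and -0.59 ± 0.08. Ccdc85a (0.48 ± 0.07) was higher in the WT BALB/cJ mouse as well (0.65, adjusted p = 0.029), whereas Sfi1, a centrin-binding protein, was at 11.16, 10.35 and 10.05 in TG BALB/cJ mice and at 9.53 in the WT mouse, inside the 9.13 to 9.84 of the other WT mice. Atp6v1c2, a proton pump subunit, and the noncoding RNA Gas5 differed by 0.58 ± 0.09 and 0.36 ± 0.06.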

How the data were processed

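Lung RNA from 24 mice was read on 1-colour whole-transcript arrays. The values are the authors' deposited log2 intensities; their log base was read from the range (3.41 to 14.75), and the software and genome build behind them were not given in the sources used here. Array medians lay between 7.759 and 7.835. Of 25285 probe sets, 1 with missing values was left out, 14539 had 1 gene symbol, 781 several and 9964 none in the platform annotation, and 14480 of those with 1 symbol matched RefSeq (GRCm38.p6). Each of 13499 genes was read from its probe set of highest mean. Few genes of chromosomes 6 to 9 were read, and Tgfb1 and sex-linked genes were not analysed here.

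limma 3.58.1 (R 4.3.3) was fitted to the means of the 12 groups (12 residual degrees of freedom, eBayes), with other strains weighted equally, two-sided tests and Benjamini-Hochberg adjustment over all genes at 0.05. TG and WT comparisons share no mouse. Nothing says which mice shared a cage or litter, and the number of arrays limits the precision. The fit was tested on simulated data. Figures used Python 3.11.15 and matplotlib 3.10.9.

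The members and gene lists were chosen with earlier results of these data known, and the liver and immediate early lists were drawn up after values were seen. Named genes were the 14 called genes of largest TG difference each way without overlap, the 4 largest called WT differences each way, the 8 largest called differences of TG effects each way, the strain check genes, and up to 4 called members of each list described. Others are said to be chosen after their values were seen, as were the tissue markers, Lyz2 and Cd74. Replicate numbers did not pair the mice: the deviations of 52 same-numbered pairs had a median correlation of -0.017. Alternatives were quantile normalization, a filter on dim genes, every probe set, array weights, a trended robust fit, equal weights for mice, each strain left out, strain means as the unit, a replicate block and each mouse left out.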

Additional observations from a re-analysis of the deposited data

Results flagged for a closer look

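The TG minus WT difference of BALB/cJ differed from that of the other strains in 13 genes, tested by limma as an interaction with adjusted p below 0.05. Each takes the WT level of BALB/cJ from 1 mouse. Of the 10 lower, Ppbp (-3.55), Rgs18 (-2.30), Tubb1 (-1.62), P2ry12 (-1.61), Pf4 (-1.50), Alox12 (-1.33) and Itga2b (-0.73) belong to the platelet list, and the WT BALB/cJ mouse was the highest WT mouse in all 7. F5 differed by -1.43 and Wif1 by -1.29. Piezo2, a mechanosensitive channel gene, differed by -0.57, and it was called in TG mice too (-0.29 ± 0.05, adjusted p = 0.0081). The 3 higher were Tcl1b2 (0.61), Gm6548 (0.67) and Scarna13 (0.91), a small Cajal body RNA. Scarna13 was at 9.26, 8.97 and 9.11 in TG BALB/cJ mice and 9.02 in the WT mouse of the strain, while the WT mice of 129 and A/J, at 11.25 and 10.80, stood above the other WT mice. The part of platelet transcripts in these differences was not tested.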

How the results depend on the processing

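The alternatives were run gene by gene for the called genes without overlap, the called strain check genes, and those named from the WT comparison or the difference of effects. None of these changed direction in the comparison that named it. Genes named only through a list or chosen after their values were seen were refitted singly only without each TG BALB/cJ mouse. Some list medians near 0 did change sign. That of TGF-β targets (-0.07) was 0.01 without C57BL/6J, that of type 1 cell genes (-0.02) 0.06 without AKR/J and 0.04 without C3H, that of MHC class I genes (0.02) -0.01 without TG BALB/cJ mouse 1, that of clock genes (0.19) -0.04 without mouse 3, and that of liver genes (0.16) -0.02 without mouse 1. The 349 genes called between TG BALB/cJ and other TG mice became 775 with array weights, 635 without AKR/J, 220 without C57BL/6J, 1 with strain means as the unit, and 28 to 474 with 1 mouse left out. The 29 WT calls became 16 among genes above the median level, 55 with array weights, 19 without C57BL/6J, and 22 to 42 with 1 mouse left out. The 13 differences of TG effects became 5 among genes above the median level, 7 with every probe set tested, 8 without 129, 8 without AKR/J, and 6 to 43 with 1 mouse left out. The 305 genes called between TG and WT BALB/cJ mice (2.26%) became 158 with every probe set, 618 with array weights, and 142 to 436 with 1 mouse left out. Only TG mice and the WT C57BL/6J mice were left out singly. None of these ranges holds a refit without the WT mouse of BALB/cJ, 129, A/J, AKR/J or C3H. The 84 genes without overlap became 0 with a gap of at least 0.25, 141 with every probe set, 177 without 129, 147 without A/J, 243 without AKR/J, 175 without C57BL/6J, and 88 to 347 with 1 mouse left out. Leaving out a mouse or a strain can only keep or raise this count, so these rises do not test it. With the replicate number as a block the counts were 320, 26, 12 and 282, and the numbers did not pair the mice. The share of higher TG calls was 34.7%, against 43.9% among genes above the median level 44.1% without TG BALB/cJ mouse 3 and 24.2% without mouse 2. For the genes run singly, 380 of 476 settings of the TG comparison, 87 of 101 of the WT comparison and 124 of 161 of the difference of effects stayed past the threshold. Leaving out 1 mouse entered as a single worst case per gene, in which 5 TG genes stayed called and 27 did not. With strain means as the unit 0 of the TG genes stayed called and 32 did not. The causes were not tested. Probe sets of 1 gene disagreed for Rps18, Rps2, Glo1, Socs3 and Ciart.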

Other observations

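Sympk, a scaffold of mRNA 3′ end processing, was chosen after its values were seen. It was at 6.18, 6.70 and 8.97 in TG BALB/cJ mice 1, 2 and 3 and 9.27 in the WT mouse, against 8.03 to 10.44 in other TG mice and 9.31 to 10.68 in other WT mice. The TG difference was -2.17 ± 0.45 (limma adjusted p = 0.018), and TG mice 1 and 2 lay below every other mouse of the series, as they did for Zhx2. Glo1, a glyoxalase with known copy number differences between strains, differed by -0.46 in TG BALB/cJ mice with one probe set and by -0.13 with the other. With the first probe set, Glo1 in A/J was at 11.20 in the WT mouse and 9.81 to 10.57 in TG mice. In AKR/J it was at 10.36 in the WT mouse and 11.05 to 11.15 in TG mice. Whether the mice of these strains share 1 genotype was not tested. Among genes in which TG mouse 3 stood apart, Ang5 was at 5.88, 5.80 and 7.89 in TG BALB/cJ mice and 8.67 in the WT mouse, and 1 A/J TG mouse, at 8.16, was high as well. Fkbp5, a glucocorticoid-induced chaperone gene, was at 8.09, 8.15 and 9.08 in TG BALB/cJ mice and 9.30 in the WT mouse, against 7.91 to 9.19 in other TG mice and 7.82 to 8.68 in other WT mice.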
